A study of Homo sapiens with 4 samples.

Results

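The clade B serpins were examined in 4 RNA-Seq libraries of the established line FaDu, squamous carcinoma cells from the hypopharynx. The rows of the expression table were taken whose gene name was SERPINB1, SERPINB2, SERPINB3, SERPINB4, SERPINB5, SERPINB6, SERPINB7, SERPINB8, SERPINB9 or SERPINB13 and whose locus lay on a numbered chromosome. This gave 10 genes, with 1 row each, of 62077 rows in all. The oxygen state was crossed with the knockdown of TET1. N-scr was normoxia with a scrambled control, N-si normoxia with TET1-si, H-scr hypoxia with a scrambled control and H-si hypoxia with TET1-si. Hypoxia meant 19 h at 1% oxygen and 5% CO2. TET1 is a dioxygenase that oxidises 5-methylcytosine in DNA, and the study's methods describe lentiviral hairpins as the means of its knockdown. The 4 groups were the same cell line and had 1 library each, so no difference below has a replicate check and each is a difference between single libraries. Where levels follow as pairs, scrambled stands before TET1-si.

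Serpins are protease inhibitors that work as suicide substrates. The protease cuts an exposed reactive centre loop, the loop folds into the body of the serpin, and the protease is left bound and distorted. Clade B serpins have no classical signal peptide and act mostly inside the cell, where they limit damage from lysosomal, granule and processing proteases. In stratified epithelium several of them are abundant and change with the state of the keratinocyte, and SERPINB3 and SERPINB4 were first known as squamous cell carcinoma antigens.

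The 10 genes sit in 2 blocks of the genome (hg19). SERPINB1, SERPINB9 and SERPINB6 lie within 139.5 kb of chromosome 6, from 2832566 to 2972090. SERPINB5, SERPINB13, SERPINB4, SERPINB3, SERPINB7, SERPINB2 and SERPINB8 lie in this order within 528.3 kb of chromosome 18, from 61143994 to 61672278. SERPINB10, SERPINB11 and SERPINB12 belong to the chromosome 18 block too. SERPINB11 and SERPINB12 were listed at 0 in the 4 libraries, and SERPINB10 was listed at 0 in 3 and at 4.43e-21 FPKM in N-si.

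The promoters of 5 members are printed because the members differ in CG dinucleotides, the sites at which 5-methylcytosine occurs, and because SERPINB1 and SERPINB6 were higher together after TET1-si while SERPINB13 was lower. Whether the TET1-si response follows CG content was not tested. The sequences are the 250 bases before a start site in the RefSeq promoter table (build GRCh38.p14, while the expression table used hg19), read 5′ to 3′ on the strand of the gene. In the first 3, capitals mark CG. They lie at chr6:2841864-2842113 (minus strand), chr6:2971568-2971817 (minus strand, the first of 4 listed starts) and chr18:63587093-63587342 (plus strand).
SERPINB1: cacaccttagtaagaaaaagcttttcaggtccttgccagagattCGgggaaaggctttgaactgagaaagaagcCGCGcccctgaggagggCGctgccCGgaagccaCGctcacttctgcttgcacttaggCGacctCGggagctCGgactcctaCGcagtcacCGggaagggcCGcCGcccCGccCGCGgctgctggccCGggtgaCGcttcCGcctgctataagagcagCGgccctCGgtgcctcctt
SERPINB6: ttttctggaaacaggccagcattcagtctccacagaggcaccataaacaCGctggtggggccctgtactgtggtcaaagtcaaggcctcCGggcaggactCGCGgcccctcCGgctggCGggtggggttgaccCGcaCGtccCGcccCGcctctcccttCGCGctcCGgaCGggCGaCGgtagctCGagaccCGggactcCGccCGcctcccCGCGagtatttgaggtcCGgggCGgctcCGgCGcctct
SERPINB13: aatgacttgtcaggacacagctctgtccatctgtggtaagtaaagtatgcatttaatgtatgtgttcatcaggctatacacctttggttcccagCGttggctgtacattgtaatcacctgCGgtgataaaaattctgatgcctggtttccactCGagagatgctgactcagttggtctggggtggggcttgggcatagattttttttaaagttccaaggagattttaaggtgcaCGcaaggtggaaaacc
The promoter of SERPINB1 held 21 CG and that of SERPINB6 held 26, against a median of 11 over 35116 promoters of the table. The promoter of SERPINB13 held 4 CG. SERPINB9 had 27 CG, SERPINB5 had 13, SERPINB8 had 7, SERPINB3 had 3, SERPINB4 had 2 and SERPINB2 had 0. For SERPINB6 the other 3 starts held 34, 34 and 3, and for SERPINB7 the 3 starts held 1, 0 and 0. The chromosome 6 members thus had CG-rich starts, except 1 start of SERPINB6, and on chromosome 18 only SERPINB5 lay above the median of the table. The printed sequences leave out members with other responses. After TET1-si, SERPINB9 had a log2 ratio of 0.19 under normoxia and -0.46 under hypoxia. SERPINB5 had -0.30 and -0.07, and SERPINB8 had 0.23 and -0.40, in the same order.

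SERPINB3 and SERPINB4 are near-identical copies that stand next to each other on the minus strand. Their promoters (chr18:63661894-63662143 and chr18:63644257-63644506) are shown with the differing bases in capitals.
SERPINB3: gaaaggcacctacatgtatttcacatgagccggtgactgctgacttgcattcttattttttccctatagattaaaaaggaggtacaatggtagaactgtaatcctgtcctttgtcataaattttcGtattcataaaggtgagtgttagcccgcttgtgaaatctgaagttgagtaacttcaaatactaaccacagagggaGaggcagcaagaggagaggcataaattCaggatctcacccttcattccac
SERPINB4: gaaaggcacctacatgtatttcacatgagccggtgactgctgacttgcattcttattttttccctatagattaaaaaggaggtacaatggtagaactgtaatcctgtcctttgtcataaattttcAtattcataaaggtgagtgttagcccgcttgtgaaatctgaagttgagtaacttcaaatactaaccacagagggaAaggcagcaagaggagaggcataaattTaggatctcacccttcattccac
They differed at 3 of 250 bases. The coding sequences of the canonical transcripts in GENCODE v44lift37 differed at 56 of 1173 bases, an identity of 95.2%, and shared a run of 129 bases without a difference. A read can tell the copies apart where it covers a differing base. The stretch with the most differences, bases 969 to 1058 counted from the start codon, is printed with its 13 differing bases in capitals.
SERPINB3: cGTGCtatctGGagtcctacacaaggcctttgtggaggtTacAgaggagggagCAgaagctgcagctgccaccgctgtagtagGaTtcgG
SERPINB4: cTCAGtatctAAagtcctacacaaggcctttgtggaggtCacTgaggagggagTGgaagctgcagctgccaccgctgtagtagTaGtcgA
Of the 100-base windows of each transcript, the read length, 3.54% were found unchanged in the other copy. SERPINB8 shared 8.47% of its windows with HMSD, whose locus overlaps it, SERPINB2 shared 24.9% with the gene ENSG00000289724, and SERPINB9 shared 1.41% with 5 genes elsewhere. The other 5 members shared none. On the opposite strand, the locus of SERPINB11 overlaps that of SERPINB3, and SERPINB10 overlaps SERPINB2 on the same strand. Levels of SERPINB3 and SERPINB4 as separate genes are uncertain at least to that extent, since only exact matches were counted.

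A motif search of the same 250 bases looked for the core of the hypoxia response element, written ACGTG or GCGTG, on both strands. It was found in SERPINB1, SERPINB5, SERPINB6, SERPINB8, SERPINB9 and SERPINB13, and in 43.2% of all promoters of the table. SERPINB13 had it once, 18 bases before the start, and SERPINB8 had it once, 188 bases before. In SERPINB2, SERPINB3, SERPINB4 and SERPINB7 these letters were not in the window. The AP-1 motif, TGACTCA or TGAGTCA on both strands, which is a site of keratinocyte genes, was found in SERPINB7, SERPINB8 and SERPINB13, and in 4.20% of all promoters. A match is a string of letters and not a bound site.

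Before the members, the labels were checked. TET1 was lower in both TET1-si libraries, with 0.129 and 0.0493 FPKM under normoxia and 0.331 and 0.122 under hypoxia, on approximately 11 to 77 reads. All 8 hypoxia genes of a check list, CA9 and NDRG1 among them, were higher in hypoxia in both knockdown states. The recovered depths ran from 22500000 to 24600000 reads per library. All 8 markers of squamous epithelium were above 1 FPKM on average, and KRT5 was 2672.6 and 523.8 FPKM under normoxia and 3992.5 and 1430.3 under hypoxia. The 7 leukocyte markers summed to between 21.9 and 30.4 FPKM, most of it CD68, with PTPRC at most at 0.0101 and with SPI1 and CD3E at 0. The 6 fibroblast markers summed to between 5.30 and 37.2 FPKM, nearly all of it COL1A1, with COL1A2 and LUM at 0. Of 4 endothelial markers 3 had a row, and they summed to between 8.93 and 48.4 FPKM, most of it CDH5. CDH5 and COL1A1 were higher in hypoxia and higher after TET1-si, as SERPINB1 was, and their part in the results was not tested.

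The level of each gene is given in FPKM, that is fragments per kb of transcript scaled to the mapped fragments of the library, a scale on which genes of different length can be compared. Ranges of a level or of a log2 ratio are 95% counting intervals from approximate reads. They cover counting error only and not the spread between cultures. A difference is called 2-fold when the change in log2(FPKM + 0.1) reaches 1 and the mean FPKM over the 4 libraries is at least 1, and 15057 genes of the table passed that minimum.

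The family fell into 6 members that passed and 4 that did not. By mean FPKM the order was SERPINB1 (58.4), SERPINB6 (28.8), SERPINB5 (16.7), SERPINB13 (11.4), SERPINB9 (4.90), SERPINB8 (2.98), SERPINB7 (0.382), SERPINB3 (0.126), SERPINB4 (0.113) and SERPINB2 (0.0309). In N-scr the counting intervals of neighbours in the order of levels overlapped only among SERPINB4, SERPINB2 and SERPINB3. In H-scr they overlapped between SERPINB6 and SERPINB13 and between SERPINB13 and SERPINB5, at 22.2, 19.6 and 18.4 FPKM, between SERPINB9 and SERPINB8, and along SERPINB7, SERPINB3 and SERPINB4. In N-si SERPINB13 and SERPINB8 overlapped, in H-si SERPINB9 and SERPINB8, and in both the 4 low members overlapped with the next in order. The squamous cell carcinoma antigens were thus among the least abundant members in these cells. The plot of levels by library shows a gap between SERPINB8 and SERPINB7 in which no library lay.

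**Figure D1:**
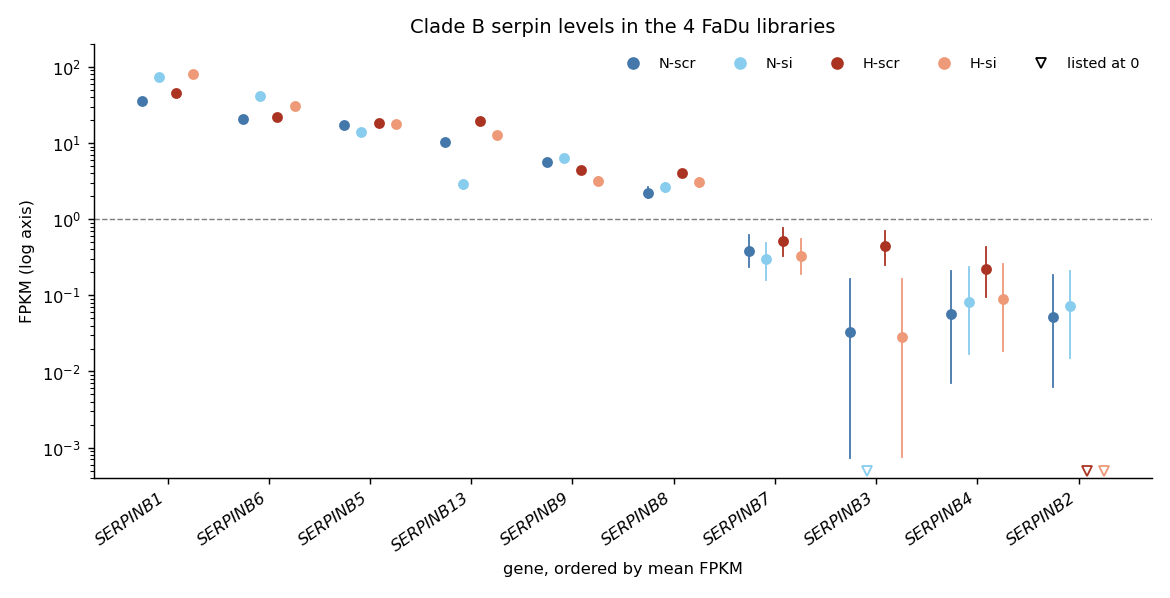
Level of each clade B serpin in FPKM (log axis) in the 4 FaDu libraries, ordered by mean; points are single libraries, vertical lines 95% counting intervals, open triangles libraries listed at 0 and the dashed line the minimum mean of 1 FPKM. The 6 genes on the left lie above the line in every library, and the 4 on the right lie below 0.52 FPKM.

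SERPINB1 (ENSG00000021355, minus strand), also called monocyte neutrophil elastase inhibitor, blocks elastase, cathepsin G and proteinase 3. It was the most abundant member in each library, with 36.1 and 72.8 FPKM under normoxia and 45.1 and 79.5 under hypoxia, on approximately 1876 to 4052 reads. Both TET1-si libraries were above both scrambled libraries. The ratio of TET1-si to scrambled was 2.02 in normoxia, with a log2 ratio of 1.01 (0.93 to 1.09), and 1.76 in hypoxia, with 0.82 (0.75 to 0.89). As a change in log2(FPKM + 0.1) these were 1.01 and 0.82, so that the normoxia value passed the 2-fold threshold narrowly and the hypoxia value did not. Hypoxia moved SERPINB1 less, by a log2 ratio of 0.32 (0.23 to 0.41) in scrambled cells and 0.13 (0.06 to 0.19) in TET1-si cells. These are bulk RNA values, in which a change in the share of cells of a kind and a change in RNA per cell cannot be told apart.

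SERPINB6 (ENSG00000124570, minus strand), an inhibitor of cathepsin G and of other trypsin-like and chymotrypsin-like proteases, had the next highest mean. Its FPKM was 20.4 and 41.5 under normoxia and 22.2 and 31.0 under hypoxia. As with SERPINB1, both TET1-si libraries were above both scrambled ones. The TET1-si log2 ratio was 1.02 (0.87 to 1.18) in normoxia and 0.49 (0.33 to 0.64) in hypoxia. In scrambled cells a hypoxia difference of SERPINB6 could not be detected at this depth, with a log2 ratio of 0.12 (-0.05 to 0.29), and under TET1-si it was lower in hypoxia, with -0.42 (-0.55 to -0.28). The change in normoxia, 1.02 on the log2(FPKM + 0.1) scale, was just over the threshold. Median-of-ratios and upper-quartile scaling took SERPINB1 as low as 0.84 and SERPINB6 as low as 0.85 under normoxia, below 2-fold, with the direction kept.

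SERPINB9 (ENSG00000170542, minus strand) inhibits granzyme B, the protease by which cytotoxic lymphocytes kill their targets. It lies between SERPINB1 and SERPINB6 on chromosome 6 and had 5.62 and 6.43 FPKM under normoxia and 4.38 and 3.19 under hypoxia. It was lower in both hypoxia libraries than in both normoxia libraries, which SERPINB1 and SERPINB6 were not. The hypoxia log2 ratio was -0.36 (-0.55 to -0.17) in scrambled cells and -1.01 (-1.21 to -0.80) in TET1-si cells. With the pseudocount the latter was -0.99, just inside 2-fold, and at a pseudocount of 0.01 it was -1.01 and was called. The TET1-si response of SERPINB9 was 0.19 (0.02 to 0.37) in normoxia and -0.46 (-0.68 to -0.23) in hypoxia, as log2 ratios.

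SERPINB5 (ENSG00000206075, plus strand), or maspin, has the serpin fold but does not inhibit proteases, and is studied as a suppressor of tumour cell invasion. It was the least variable of the 6 members that passed, with 17.1 and 13.8 FPKM under normoxia and 18.4 and 17.5 under hypoxia. The lowest library was N-si. Its TET1-si log2 ratio was -0.30 (-0.44 to -0.17) in normoxia and -0.07 (-0.19 to 0.06) in hypoxia, and the second value turned to 0.02 with TPM. The hypoxia log2 ratio was 0.11 (-0.02 to 0.23) in scrambled cells and 0.34 (0.21 to 0.48) in TET1-si cells.

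SERPINB13 (ENSG00000197641, plus strand), known as hurpin or headpin, inhibits cathepsins L and K and is expressed in stratified epithelium. It varied most among the members that passed, with 10.2 and 2.86 FPKM under normoxia and 19.6 and 12.9 under hypoxia, on approximately 205 to 1409 reads. N-si was the lowest library and H-scr the highest, and both hypoxia libraries were above both normoxia libraries. In hypoxia it was 1.92-fold higher in scrambled cells, a log2 ratio of 0.94 (0.81 to 1.07), and 4.50-fold higher in TET1-si cells, a log2 ratio of 2.17 (1.95 to 2.40). The change in scrambled cells, 0.93 with the pseudocount, stayed under 2-fold, and TPM took it to 1.05. Of the 8 squamous markers 7 were lowest in N-si, as SERPINB13 was, and 5 were highest in H-scr. The markers summed to 4757.2 and 1841.5 FPKM under normoxia and 7642.4 and 4161.3 under hypoxia. KRT14, a basal keratin, had 42.1 and 0.487 FPKM under normoxia and 99.9 and 1.41 under hypoxia. CDH1, or E-cadherin, went the other way after TET1-si, with 179.3 and 266.9 FPKM under normoxia and 291.9 and 398.9 under hypoxia, and PERP and DSC3 were highest in H-si. The part of these markers in the values of SERPINB13 was not tested. TET1-si libraries held 3.57-fold less SERPINB13 in normoxia (log2 ratio -1.84, -2.07 to -1.61) and 1.52-fold less in hypoxia (-0.61, -0.73 to -0.48). On the log2 scale the hypoxia response with TET1-si exceeded that without it by 1.23 (0.97 to 1.49), the only such difference over 2-fold and above 0 among the members that passed. On the log2(FPKM + 0.1) scale it was 1.20, and at a pseudocount of 1 it was 0.97 and was no longer called.

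SERPINB8 (ENSG00000166401, plus strand) inhibits furin, a processing protease of the secretory pathway. It had 2.24 and 2.63 FPKM under normoxia and 4.01 and 3.03 under hypoxia, on approximately 160 to 307 reads. H-scr was the highest library. Its hypoxia log2 ratio was 0.84 (0.56 to 1.12) in scrambled cells and 0.20 (-0.08 to 0.49) in TET1-si cells, and the difference between the responses was -0.64 (-1.04 to -0.24). The TET1-si log2 ratio was 0.23 (-0.08 to 0.54) in normoxia and -0.40 (-0.66 to -0.15) in hypoxia.

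**Figure D2:**
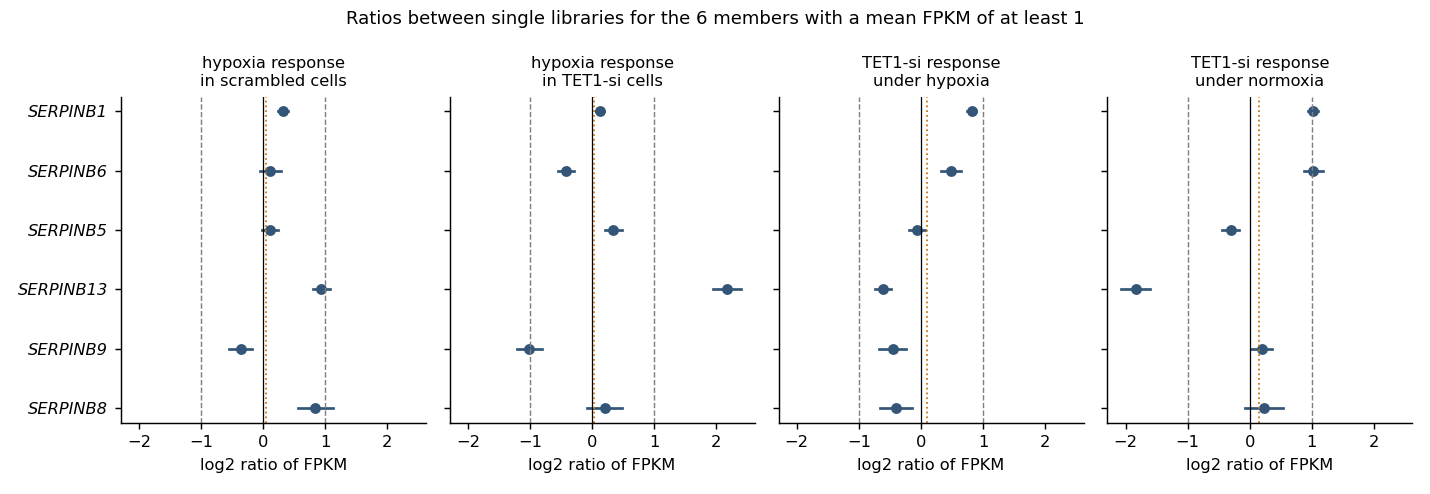
Log2 ratio of FPKM between single libraries for the 6 members with a mean of at least 1 FPKM, in the 4 comparisons; horizontal lines are 95% counting intervals, dashed lines mark 2-fold, and the dotted line is the median change of all 15057 genes. SERPINB1 and SERPINB6 lie to the right in both TET1-si panels, and SERPINB13 lies farthest from 0 in the panels for hypoxia in TET1-si cells and TET1-si in normoxia.

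The 2-fold threshold could be reached by the 6 members that passed the minimum and not by the other 4. In the hypoxia response of scrambled cells 0 members were called in either direction, where 12.9% of the 15057 genes were called higher and 4.53% lower. In that of TET1-si cells SERPINB13 was called higher and 0 lower, against 12.5% and 8.66% of all genes. After TET1-si under hypoxia 0 members were called, against 12.0% higher and 8.35% lower. After TET1-si under normoxia SERPINB1 and SERPINB6 were called higher and SERPINB13 lower, against 12.1% and 5.56%. For the difference of hypoxia responses SERPINB13 was called higher, against 4.87%, and 0 lower, against 7.86%. Of all genes called after TET1-si under normoxia 68.6% were higher, and 56.0% with median-of-ratios scaling, and of those called for hypoxia with TET1-si 59.1% were higher, and 70.1% with TPM over loci longer than 300 bp. The 6 members are too few for these counts to be set apart from the shares of all genes. The counting interval excluded 0 for 4, 5, 5 and 5 of the 6 members that passed, in the order hypoxia in scrambled cells, hypoxia in TET1-si cells, TET1-si under hypoxia and TET1-si under normoxia, against 76.4%, 79.3%, 78.9% and 76.6% of 13842 genes with a transcript length.

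The median change of the 6 members that passed, on the log2(FPKM + 0.1) scale, was 0.22 for hypoxia without TET1-si and 0.16 with it, beside medians of 0.05 and 0.03 over all genes that passed. For TET1-si it was -0.23 under hypoxia and 0.21 under normoxia, beside 0.10 and 0.15. Counting only members whose mean reached 5 FPKM turned the first to 0.21, and the second was 0.046 with median-of-ratios and 0.040 with upper-quartile scaling. The range of the members was wider than these medians show, from -0.60 to 0.82 for TET1-si under hypoxia and from -1.80 to 1.02 under normoxia. The comparisons share libraries in part: each TET1-si response uses a library that a hypoxia response uses too. The pair of hypoxia responses shares none, and of the 6 members SERPINB1 and SERPINB13 were higher in both and SERPINB9 was lower in both, with counting intervals that excluded 0. SERPINB5, SERPINB6 and SERPINB8 each had an interval that included 0 in one of the states, so that no shared direction is given for them. Of all genes that passed, by sign alone, 40.8% were higher in both and 35.7% lower in both. After TET1-si, SERPINB1 and SERPINB6 were higher in both oxygen states and SERPINB13 was lower in both, beside 46.2% and 28.7% of all genes by sign alone. SERPINB5 was lower under normoxia, and under hypoxia its interval included 0 and its sign turned with TPM.

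The family total followed its most abundant members. Summed over the 10 members it was 92.2 and 140.5 FPKM under normoxia and 114.8 and 147.6 under hypoxia. The 3 chromosome 6 members made 67.4% and 85.9% of the total under normoxia and 62.4% and 77.0% under hypoxia. SERPINB1 and SERPINB6 each made a larger part of the total in the TET1-si library of either oxygen state, while the part of SERPINB9 was smaller, 6.09% and 4.58% under normoxia and 3.82% and 2.16% under hypoxia. SERPINB13 made 11.1% and 2.04% of the total under normoxia and 17.1% and 8.72% under hypoxia.

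**Figure D3:**
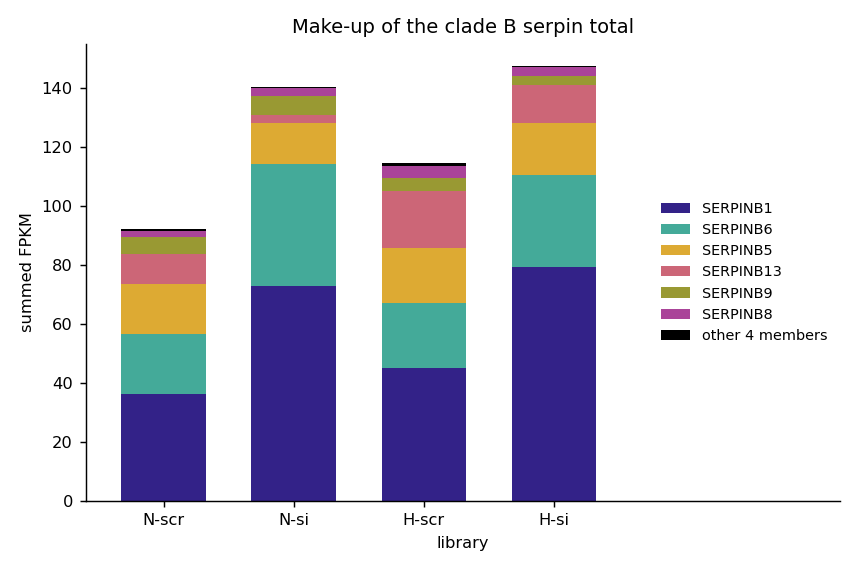
Summed FPKM of the clade B serpins in each library, split by member; the bars start at 0. The totals are 92.2 and 140.5 FPKM under normoxia and 114.8 and 147.6 under hypoxia, and SERPINB1 makes the largest part of each bar.

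Of the 4 members under the minimum, SERPINB7 (ENSG00000166396, plus strand), or megsin, is expressed in the upper epidermis. It had 0.387 and 0.297 FPKM under normoxia and 0.516 and 0.329 under hypoxia on approximately 14 to 25 reads. None of its counting intervals excluded 0, so that no difference was detectable. SERPINB2 (ENSG00000197632, plus strand), plasminogen activator inhibitor 2, is the inhibitor of urokinase in this clade. It was 0.0512 FPKM in N-scr and 0.0723 in N-si on approximately 2 and 3 reads, and was listed at 0 in both hypoxia libraries, where 3 reads would have given 0.0720 and 0.0787 FPKM. Its response was not detectable at this depth.

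SERPINB3 (ENSG00000057149) and SERPINB4 (ENSG00000206073), also known as SCCA1 and SCCA2, inhibit cysteine cathepsins and chymotrypsin-like proteases respectively. SERPINB3 was 0.0328 FPKM and listed at 0 under normoxia and 0.442 and 0.0284 FPKM under hypoxia, on approximately 1, 0, 16 and 1 reads. Only H-scr stood apart from the rest. The log2 ratio of H-scr to N-scr was 3.75 (1.21 to 9.29) and that of H-si to H-scr was -3.96 (-9.26 to -1.18). SERPINB4 had 0.0567, 0.0822, 0.223 and 0.0888 FPKM in the same order, on approximately 2, 3, 8 and 3 reads. It too was highest in H-scr, but its intervals for hypoxia in scrambled cells (-0.43 to 5.17) and for TET1-si under hypoxia (-3.83 to 0.77) included 0. The sum of the copies was 0.0895 and 0.0822 FPKM under normoxia and 0.665 and 0.117 under hypoxia.

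In its own selection of genes the study asked for 3 things at once: a level in H-scr more than 2 times that in H-si, a level in H-scr above that in N-scr, and no higher level in N-si than in N-scr. Among the members SERPINB3 alone met them, on the reads given above, as did 2687 rows, or 4.33% of all rows of the table. That is more than the number of genes the paper reported as regulated by TET1 under hypoxia. Meeting the criteria here therefore does not place SERPINB3 in the study's own set. At a mean FPKM of at least 1, 0 members met the criteria, against 3.84% of the 15057 genes. SERPINB4 missed the last criterion. SERPINB13 missed the first, with a ratio of H-scr to H-si of 1.52, and SERPINB8 missed the first and the last, with a ratio of 1.32.

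The proteases that clade B serpins are known to inhibit, with the plasminogen system, were followed as a list of 15 genes with a row, of which 9 passed the minimum. After TET1-si under hypoxia 3 of the 9 were at least 2-fold lower and 0 higher, against 8.35% and 12.0% of all genes, with a median of -0.80 beside 0.10 for all genes. Under normoxia 2 were lower and 1 higher, against 5.56% and 12.1%, with a median of -0.16 beside 0.15. The lower ones in both states were PLAU and CTSL1. PLAU, which encodes urokinase, had 223.5 and 95.3 FPKM under normoxia and 313.9 and 147.7 under hypoxia. CTSL1, which encodes cathepsin L, the target of SERPINB3 and SERPINB13, had 88.1, 32.1, 110.2 and 52.3 FPKM in the same order. Both TET1-si libraries were below both scrambled libraries for PLAU and for CTSL1. CTSK, which encodes cathepsin K, also a target of SERPINB13, had 1.77 and 1.57 FPKM under normoxia and 2.36 and 2.89 under hypoxia. Its counting intervals for TET1-si included 0 in both oxygen states. PLAT, which encodes tissue plasminogen activator, had 19.5 and 18.3 FPKM under normoxia and 101.4 and 28.1 under hypoxia.

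FURIN, the target of SERPINB8, had 31.7 and 17.7 FPKM under normoxia and 45.7 and 24.3 under hypoxia, and its changes stayed within 2-fold. CTSS, which encodes cathepsin S, had 12.8 and 18.7 FPKM under normoxia and 39.8 and 52.2 under hypoxia, and passed 2-fold for hypoxia with and without TET1-si. KLK8, a kallikrein of the skin, had 1.10 and 3.09 FPKM under normoxia and 2.20 and 1.70 under hypoxia. ELANE, PRTN3, CTSG and GZMB, the granule proteases that SERPINB1, SERPINB6 and SERPINB9 inhibit in leukocytes, were listed at 0 in the 4 libraries. The abundant serpins of chromosome 6 were thus measured in cells with these leukocyte targets at 0 in the table.

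Serpins of the other clades gave a comparison within the superfamily. Of 12 genes 8 passed the minimum. In hypoxia in scrambled cells 5 of the 8 were at least 2-fold higher and 0 lower, against 12.9% and 4.53% of all genes, with a median of 1.23. None of the 6 clade B members that passed reached 2-fold there, although SERPINB13 did with TPM, at 1.05. After TET1-si under hypoxia 1 was higher and 4 were lower, against 12.0% and 8.35%. SERPINA3, alpha-1-antichymotrypsin, had 2.78 and 1.30 FPKM under normoxia and 9.43 and 1.03 under hypoxia. SERPINF1, or pigment epithelium-derived factor, had 12.8, 17.8, 30.6 and 113.5 FPKM in the same order, and was highest in H-si. The difference between the lists was not tested.

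Genes beside the members were taken within 500 kb of either block. On chromosome 6, 7 of 9 protein-coding neighbours passed the minimum. After TET1-si under normoxia 6 of these 7 were higher by any amount, as were 60.3% of all genes, and 0 reached 2-fold, with a median of 0.40 beside 0.15 for all genes. NQO2, the nearest of them to SERPINB6, had 19.4 and 30.7 FPKM under normoxia and 13.9 and 18.9 under hypoxia. RIPK1 had 9.20, 14.5, 13.5 and 15.5 FPKM in the same order. In hypoxia 4 of the 7, WRNIP1, NQO2, TUBB2A and PSMG4, were lower in both hypoxia libraries than in both normoxia libraries, as SERPINB9 was, and the medians of the 7 were -0.28 without TET1-si and -0.26 with it. SERPINB1 and SERPINB6 were farther from 0 than any of these 7 neighbours after TET1-si under normoxia, while SERPINB9 between them was at 0.19. MYLK4, under the minimum with a mean of 0.931 FPKM, was at 1.17 after TET1-si under normoxia and at 0.87 under hypoxia. TUBB2B, the other neighbour under the minimum, was at 0.30 and -1.71 on at most approximately 10 reads. After TET1-si under hypoxia 5 of the 7 were higher, as were 56.5% of all genes, and TUBB2A was at least 2-fold lower.

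On chromosome 18, 8 protein-coding neighbours had a row, the other 3 clade B serpins among them, and 3 passed. KDSR had 24.9 and 21.9 FPKM under normoxia and 21.1 and 17.6 under hypoxia, and VPS4B had 23.5, 28.0, 25.9 and 34.1. None of the 3 reached 2-fold in any comparison. Among the genes of this stretch with a mean of at least 1 FPKM, SERPINB13 alone passed 2-fold after TET1-si, and under normoxia only. The plot along both loci shows these genes. BCL2, under the minimum with a mean of 0.542 FPKM, was at -1.34 after TET1-si under normoxia and at -0.68 under hypoxia. HMSD, also under the minimum, was at 1.16 and -0.91 on at most approximately 6 reads.

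**Figure D4:**
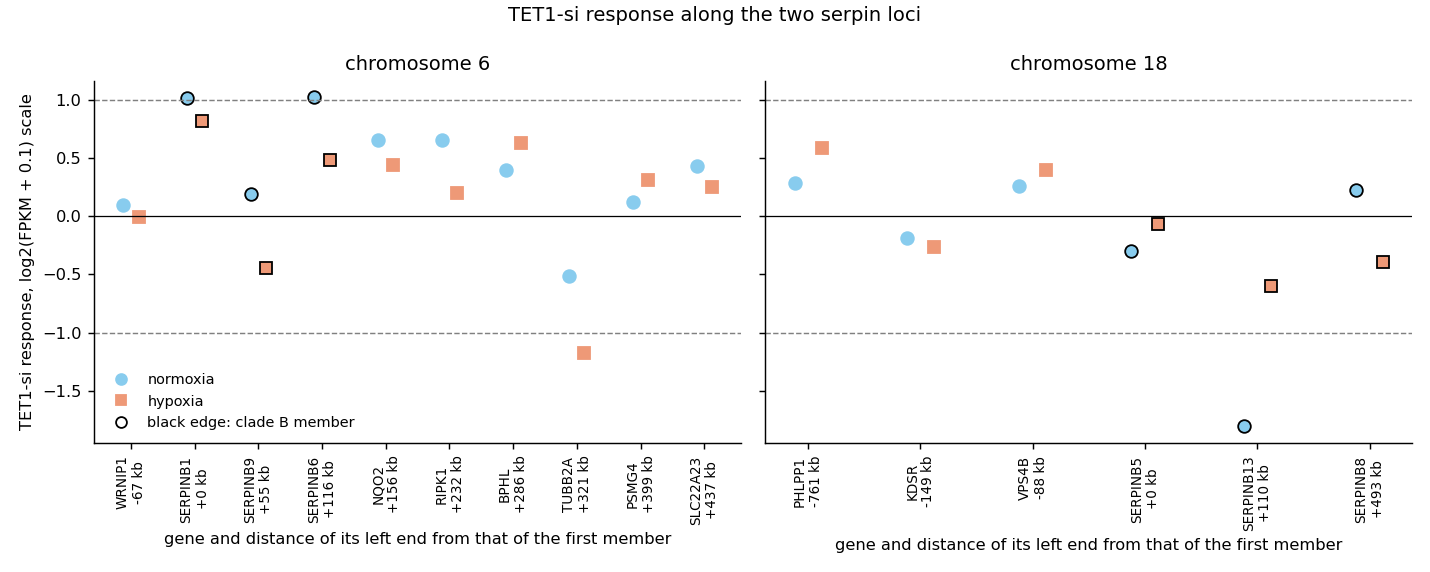
TET1-si response (log2(FPKM + 0.1) scale) of the members and of protein-coding neighbours with a mean FPKM of at least 1, in genome order along the chromosome 6 block and the chromosome 18 block; circles are normoxia, squares hypoxia, black edges mark members, dashed lines mark 2-fold and kb are counted from the first member. SERPINB1 and SERPINB6 lie at 1.01 and 1.02 in normoxia and SERPINB13 at -1.80.

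Level and promoter composition were set side by side over the 10 members. The 3 members of chromosome 6, with 21 to 34 CG at all starts but 1 of SERPINB6, had mean levels from 4.90 to 58.4 FPKM. SERPINB2, SERPINB3, SERPINB4 and SERPINB7, with 0 to 3 CG, had means under 0.4 FPKM. SERPINB5, with 13 CG, had a mean of 16.7 FPKM and SERPINB8, with 7 CG, one of 2.98. Level did not follow CG throughout, since SERPINB13, with 4 CG, had a mean of 11.4 FPKM and SERPINB9, with 27 CG, one of 4.90. The 10 genes are few and share blocks of sequence, and the relation is a description of these promoters and not of their methylation, which was not analysed here.

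**Figure D5:**
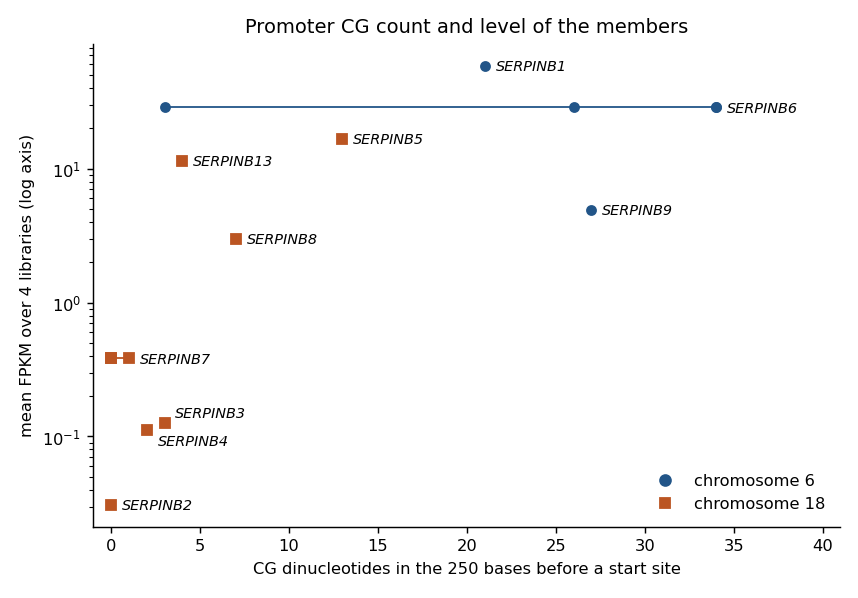
CG dinucleotides in the 250 bases before a RefSeq start site against mean FPKM over the 4 libraries (log axis) for the 10 members; circles are chromosome 6, squares chromosome 18, and points joined by a line are the starts of 1 gene. SERPINB2, SERPINB3, SERPINB4 and SERPINB7 lie at 0 to 3 CG and under a mean of 0.4 FPKM.

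The genes most like the most variable members were sought among 10447 rows with a mean FPKM of at least 5 and a locus over 300 bp. Likeness was the root mean square distance of centred log2 levels over the 4 libraries. For SERPINB13 the nearest were ZBTB43 at 0.12, FAM65C at 0.18 and DDIT4 at 0.26 on the log2 scale. ZBTB43 had 18.5 and 4.51 FPKM under normoxia and 29.6 and 18.8 under hypoxia. For SERPINB1 they were TRIM13, TSKU and LIG4, all at 0.02 to 0.03. TRIM13 had 15.2, 29.5, 18.6 and 33.6 FPKM in the same order. The distance rests on 4 libraries only.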

How the data were processed

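RNA of FaDu cells from normoxia or hypoxia, with or without TET1 knockdown, was sequenced in 4 libraries. The authors prepared mRNA libraries, sequenced 100 bp reads (single end per the labels, paired end per the study's methods), and ran TopHat and Cufflinks on hg19 with Ensembl annotations; their versions are not given in the sources used here. The authors deposited FPKM per gene. Groups follow the sample titles. Members and gene lists were chosen with earlier results of these data known. All members, the lists, the genes beside each block and the 3 rows nearest in pattern were named by rule.

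FPKM are not counts, so no count test was run, and with 1 library a group no p-value was given. Depth was recovered from 5033 genes with 1 exon, where between 96.9% and 97.7% of low values came out as whole reads within 0.05. Approximate reads are FPKM times depth times canonical transcript length (GENCODE v44lift37) less 214 bp. Intervals of ratios are exact (Clopper-Pearson), those of a difference of responses combine them by square-and-add, and those of levels are exact Poisson. Rows whose ID repeats (232) were left out. Start positions had 1 added. Methods were tested on simulated data. Python 3.11.15, scipy 1.17.1 and pandas 2.3.3 were used. Alternatives were other pseudocounts, minimum levels, scalings and thresholds, and SERPINB3 and SERPINB4 summed. The values of 1 listed gene are not reported here.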

Additional observations from a re-analysis of the deposited data

Results flagged for a closer look

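Among the 6 members that passed the minimum level, those whose response had opposite signs in the 2 states were SERPINB6, SERPINB8 and SERPINB9. With 1 library per state these differences were not tested across replicates. On the log2(FPKM + 0.1) scale the hypoxia response of SERPINB6 was 0.12 without and -0.42 with TET1-si, a difference of -0.53. The TET1-si response of SERPINB8 was 0.23 under normoxia and -0.39 under hypoxia, a difference of -0.62. That of SERPINB9 was 0.19 and -0.44, a difference of -0.64. The counting intervals of the 3 differences excluded 0. So did those of all 6 members that passed, and this does not set the 3 apart. The interval of SERPINB6 in scrambled cells and that of SERPINB8 under normoxia included 0, so that the sign of those responses was not detectable at this depth. The positive sign of SERPINB9 under normoxia was slight under other scalings, at 0.027 with median-of-ratios and 0.021 with upper-quartile scaling, and that of SERPINB8 was 0.065 and 0.059.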

How the results depend on the processing

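Median-of-ratios and upper-quartile scaling each took the members at least 2-fold higher after TET1-si under normoxia, SERPINB1 and SERPINB6, from 2 to 0, and the median of the members in that comparison from 0.21 to 0.046 and 0.040. TPM, over all rows or over loci longer than 300 bp, took the members higher in hypoxia in scrambled cells from 0 to 1, SERPINB13. A pseudocount of 1 took the normoxia count to 0 and the members higher for the difference of hypoxia responses from 1 to 0. A pseudocount of 0.01 took the members lower in hypoxia with TET1-si from 0 to 1, SERPINB9. With no filter on expression, 2 members on few reads, SERPINB3 and SERPINB4, were called higher in hypoxia in scrambled cells, 1, SERPINB3, was called lower after TET1-si under hypoxia and 1 was called lower for the difference of responses. The median of the 10 members after TET1-si under hypoxia was then -0.42. At a mean FPKM of at least 5 this median was 0.21 in place of -0.23, and that of the difference of responses was 0.021 in place of -0.36, both over fewer members. At 1.5-fold, 2 members passed as higher for hypoxia in scrambled cells and 1 was lower in hypoxia with TET1-si. At that threshold 1 was higher and 1 lower after TET1-si under hypoxia, and 2 were lower for the difference. The share of all genes called was not computed at 1.5-fold or without the filter. Those counts of members therefore have no background and are not read as a result. Requiring a mean FPKM of at least 1 took the members meeting the study's criteria from 1 to 0. The other 127 counts and medians stayed within 1.5 times the reported count, or, for medians, within the width of the members' counting intervals. Of the values of single members, 276 stayed within their counting interval, and the other 64 did not or had no interval. Summing SERPINB3 and SERPINB4 changed no 2-fold count or median, and could not, since their sum stayed under 1 FPKM in every library. It also left the values of the other members as they were. Thus 15 of the 127 and 36 of the 276 were fixed in advance.

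Leaving out a replicate was not possible, since each group held 1 library. No paired analysis was possible because the groups had no replicate numbers to share. Values of SERPINB2, SERPINB3, SERPINB4 and SERPINB7 rest on at most approximately 25 reads, and their intervals are wide.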
